A study of Homo sapiens with 8 samples.

Results

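The transcript response of THP-1 cells to 24 h of LSD1 inhibition was described from 1 pair of RNA-seq libraries, chosen by cell line, agent and time in the labels. The pair makes up 2 of the 8 libraries of the study. THP-1 is a human monocytic leukemia line that carries a KMT2A fusion, and the study labelled it resistant to LSD1 inhibition. The treated cells had received the LSD1 inhibitor DDP38003 (LSD1i) at 0.5 µM for 24 h, and the control cells had received vehicle for 24 h. The other libraries were THP-1 with vehicle or LSD1i for 72 h, and KASUMI-1, a leukemia line with a RUNX1::RUNX1T1 fusion that the study labelled sensitive, with vehicle or LSD1i for 6 h and for 72 h. LSD1i was at 0.5 µM in every treated library. By the study's design text, 24 h was the first time at which THP-1 showed a change of the kinase mTOR after LSD1i. Each of the 8 groups held 1 library, so no difference here has a replicate check and no p-value was computed.

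LSD1, encoded by KDM1A, is a demethylase of histone H3 that works in corepressor complexes with RCOR1 and histone deacetylases. In blood cells the zinc-finger repressors GFI1 and GFI1B bring it to enhancers of myeloid genes, many of them also bound by the activators PU.1 (gene SPI1) and C/EBP alpha (CEBPA). Inhibitors of LSD1 are known to release GFI1 from LSD1 and to let myeloid leukemia cells express genes of mature monocytes, with CD86 and LY96 among the usual reporters.

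The vehicle library had 43392502 counted reads and the LSD1i library 42623571, and the 8 libraries ranged from 23722972 to 45970766. Of 18 markers expected of THP-1, 16 were tested, and ITGB2, CD33, SPI1, ELANE, AZU1 and HOXA9 were well expressed in both libraries. The other 2 were CD68, with 14 and 16 reads in vehicle and LSD1i, and MEIS1, with 3 and 5 reads. Markers of other blood lineages were nearly absent. Of 23 erythroid and megakaryocyte markers 2 were tested (EPOR and TFRC) and 11 had no read in either library, among them HBB, GATA1 and PF4, and the summed level of the list was 223 CPM (reads scaled to library size with edgeR's TMM factors) in vehicle and 234 CPM with LSD1i, most of it TFRC. Of 28 lymphoid markers 3 were tested (CD79B, NCAM1 and NKG7), CD3E, CD7 and LCK had 0 reads, and the sum was 26.9 and 31.8 CPM. The 10 mast cell and basophil markers summed to 1.38 and 1.70 CPM.

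A gene was tested when its mean over the pair was at least 2 CPM, which held for 11267 genes. Ratios are log2 of LSD1i over vehicle with a prior count of 2, and each has an exact 95% binomial interval, computed without the prior count, that covers counting error only. A gene was called past 2-fold, and is said to have risen or fallen, when its log2 ratio was at least 1 in size and the interval excluded equality. By that rule 315 genes rose (2.8% of those tested) and 48 fell (0.426%), so 86.8% of the 363 called genes were higher with LSD1i. The excess grew with size: 75 genes rose and 2 fell by at least 4-fold, and 24 rose and 0 fell by at least 8-fold. The bulk of the transcriptome stayed close to equality, with a median log2 ratio of 0.01 and quartiles of -0.13 and 0.17. At this depth the counting interval excluded equality for 6872 genes (61.0%).

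**Figure D1:**
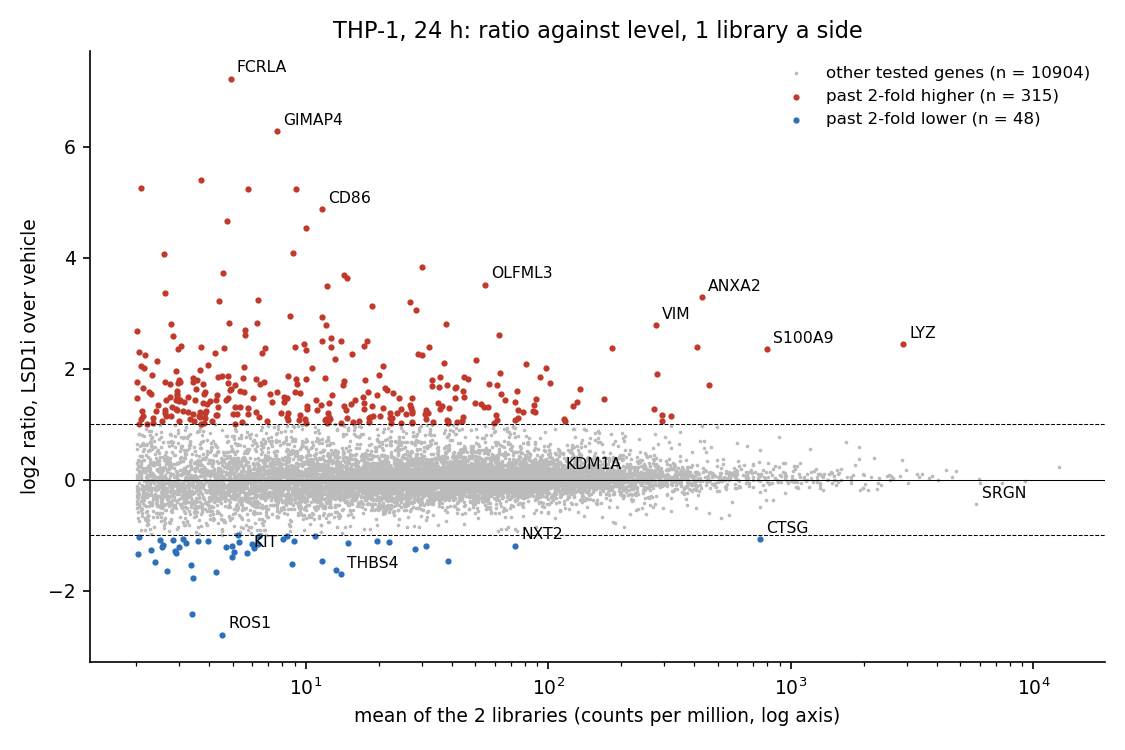
Each point is 1 of the 11267 tested genes of THP-1 at 24 h. The horizontal axis is the mean of the vehicle and LSD1i libraries in CPM on a log scale, the vertical axis the log2 ratio of LSD1i over vehicle, and dashed lines mark 2-fold. Red points (315 genes) reach a log2 ratio of 7.23 at FCRLA and extend to abundant genes such as LYZ, while blue points (48 genes) end at -2.79 at ROS1.

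The target of the drug and its tested partners were within 2-fold. KDM1A had 5027 reads (107 CPM) in vehicle and 5026 (114 CPM) with LSD1i, a log2 ratio of 0.09 (95% interval 0.03 to 0.15). The drug acts on the protein, so the transcript does not check the labels. Of 23 listed LSD1 partners and cofactors 20 were tested, 0 passed 2-fold in either direction and their median log2 ratio was -0.01, beside 0.01 over all tested genes. The largest ratios in the list belonged to the repressors that recruit LSD1: GFI1 had 10391 reads in vehicle and 15336 with LSD1i (0.65, 0.62 to 0.69), and SNAI1 had 80 and 127 (0.74, 0.34 to 1.18). GFI1B, the paralog used in red cells and platelets, was under the level filter with 21 reads in vehicle and 6 with LSD1i, a log2 ratio of -1.45 (-3.32 to -0.36), and was one of the 3 listed partners not tested. The scaffold RCOR1 had 99.5 CPM in vehicle and 103 CPM with LSD1i.

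Among 26 tested myeloid transcription factors 6 rose (beside 2.8% over all tested genes) and 0 fell, with a median log2 ratio of 0.35. The lineage-setting factors SPI1, CEBPA and IRF8 stayed within 2-fold. SPI1 went from 131 CPM in vehicle to 177 CPM with LSD1i (0.44, 0.39 to 0.48). CEBPA went from 297 to 343 CPM (0.21) and IRF8, a monocyte and dendritic cell factor, from 638 to 704 CPM (0.14). The factors that rose were of several kinds. ID3 and ID1, inhibitors of basic helix-loop-helix factors, had 142 and 937 reads in vehicle and 936 and 2805 with LSD1i, log2 ratios of 2.79 (2.56 to 3.08) and 1.67 (1.56 to 1.78). KLF4, a zinc-finger factor of monocyte differentiation, went from 400 to 1389 reads (1.88, 1.72 to 2.05). MITF (1.59), the repressor BCL6 (1.43) and IRF7 (1.04), a driver of interferon genes, made up the rest of the 6.

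Receptors by which monocytes sense microbes and antibodies held the best-known rises. Of 58 listed surface receptors 34 were tested, and 11 rose and 0 fell, beside 2.8% higher and 0.426% lower over all tested genes. Their median log2 ratio was 0.58. CD86, the costimulatory ligand that T cells read through CD28, had 34 reads (0.723 CPM) in vehicle and 1000 (22.6 CPM) with LSD1i, a log2 ratio of 4.89 (4.48 to 5.51). LY96 (MD-2), the part of the endotoxin receptor that binds lipid A, had 20 reads (0.425 CPM) and 785 (17.8 CPM), a ratio of 5.25 (4.75 to 6.10). Both genes were barely detected in vehicle. Of their partners in endotoxin sensing, CD14, which hands the ligand over, had 37 and 150 reads (2.05, 1.58 to 2.67), whereas TLR4, the signalling chain, had 1149 and 1037 (-0.06).

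FCGR2B, the inhibitory receptor for IgG, rose from 44 to 736 reads (4.09, 3.71 to 4.63). It is nearly identical in part to FCGR2A and FCGR2C. Reads that map to several places were not counted, so FCGR2B may be undercounted. FCGR2A had 3059 and 3612 reads. ITGAM (CD11b), the integrin chain that marks maturing myeloid cells, had 441 reads (9.38 CPM) in vehicle and 2918 (66.1 CPM) with LSD1i, a ratio of 2.81 (2.67 to 2.96). CSF1R, the receptor for the macrophage growth factor, went from 31.0 to 77.5 CPM (1.32, 1.23 to 1.41), and FCER1G, the signalling chain shared by several Fc receptors, from 216 to 706 CPM (1.71, 1.68 to 1.74). LILRB1, an inhibitory receptor for MHC class I, had 42 and 138 reads (1.76). The other members that rose were TLR1, CLEC5A and CSF2RA. Among receptors of mature tissue macrophages, CD163 had 3 reads in vehicle and 86 with LSD1i. Its count was thus much higher with LSD1i, but its mean was under the level filter, so CD163 was not called. MRC1 had 0 reads in both libraries.

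In antigen presentation the members that rose present lipids or help to load peptides. Of 18 tested genes 6 rose (beside 2.8% over all tested genes) and 0 fell, with a median of 0.60. The intervals of 17 lay above equality. CD1 proteins present lipids to T cells. CD1A had 6 reads (0.128 CPM) in vehicle and 320 (7.25 CPM) with LSD1i, a log2 ratio of 5.41 (4.69 to 7.28), and CD1C had 12 and 219 (4.06, 3.45 to 5.25). CD1D, which was already expressed, went from 2217 to 4863 reads (1.22, 1.15 to 1.30). CD1E had 0 reads in vehicle and 21 with LSD1i, at least 7.45-fold higher when the vehicle library is set to the floor of 3 reads, and CD1B had 0 and 13. All 5 CD1 genes had more reads with LSD1i. HLA-DMB and HLA-DMA form the exchange factor that loads peptide onto class II molecules, and had 24 and 174 reads in vehicle and 155 and 385 with LSD1i (2.68 and 1.23). IFI30, a lysosomal thiol reductase that unfolds antigens, had 1242 and 4436 reads (1.93, 1.83 to 2.02). The class II chains HLA-DRA and HLA-DRB1 were at 0.70 and 0.89, and B2M, the light chain of class I molecules, at 0.11. HLA genes may be undercounted, because reads that also map to alternative MHC haplotypes were not counted.

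Among products that monocytes secrete or hold in bulk, some of the most abundant transcripts rose, and others rose from low levels. Of 16 tested members 8 rose (beside 2.8% higher over all tested genes) and 1 fell, with a median of 0.90, the highest of the lists. The summed level of the list went from 5019 CPM in vehicle to 11130 CPM with LSD1i, with much of the gain in LYZ. LYZ, the lysozyme that digests bacterial walls, had 42132 reads (896 CPM) in vehicle and 216663 (4906 CPM) with LSD1i, a ratio of 2.45 (2.44 to 2.47). The calprotectin subunits S100A8 and S100A9 had 131 and 260 CPM in vehicle and 688 and 1332 CPM with LSD1i (2.40 and 2.36). S100A12, their neighbour in the same gene cluster, started lower and had 183 and 2488 reads (3.84, 3.64 to 4.08). VCAN, a proteoglycan made by classical monocytes, had 244 and 2137 reads (3.21, 3.03 to 3.42), and RNASE6, an antimicrobial ribonuclease, had 249 and 1133 (2.27). TIMP3, an inhibitor of metalloproteinases in the matrix, was the member that fell, with a ratio of -1.25.

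The 15 largest rises among names with a current symbol came from several functions. FCRLA, an intracellular relative of Fc receptors known from B cells, had 1 read in vehicle and 431 with LSD1i, a ratio of 459-fold with a counting interval from 81.9-fold up to 18160-fold. GIMAP4, a GTPase of the immunity-associated family, had 7 reads and 664, a log2 ratio of 6.29 (5.61 to 7.98). Values within the family were uneven, though the intervals of all 6 tested members lay above equality. GIMAP1 also rose, with 108 and 236 reads (1.20, 0.88 to 1.56), and GIMAP8 had 133 and 197 (0.65, 0.33 to 0.99). GIMAP2, GIMAP5 and GIMAP6 were between 0.15 and 0.31, and GIMAP7 had 0 reads in both libraries. GBP1, an interferon-inducible GTPase, had 3 and 181 reads, a ratio of 64.2-fold with a counting interval of 21.6-fold to 314-fold. RGMB, a coreceptor for bone morphogenetic proteins, had 12 and 497 reads (5.24, 4.64 to 6.42).

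Further rises of that group were a transporter, a channel, a nuclear protein, a mitochondrial protein and a receptor. SLC7A8, an exchanger of neutral amino acids, had 15 and 403 reads (4.66), and KCNK13, a potassium channel, had 37 and 849 (4.54). SP140, a chromatin reader of leukocytes, had 28 and 374 (3.73), MCUB, an inhibitory subunit of the mitochondrial calcium uniporter, had 95 and 1179 (3.69), and GPR65, a proton-sensing receptor, had 102 and 1214 (3.64). The vehicle level of all of these largest rises was below 3 CPM except for S100A12, with 3.89 CPM. At a mean of at least 50 CPM the largest rises were OLFML3, ANXA2, VIM, CYBB and LYZ. ANXA2, a calcium-dependent membrane-binding protein, had 3738 reads (79.5 CPM) in vehicle and 34361 (778 CPM) with LSD1i, a ratio of 3.29 (3.24 to 3.34). VIM, the intermediate filament of migratory cells, had 69.8 and 484 CPM (2.79), and CYBB, the catalytic subunit of the phagocyte NADPH oxidase, 17.7 and 108 CPM (2.60).

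**Figure D2:**
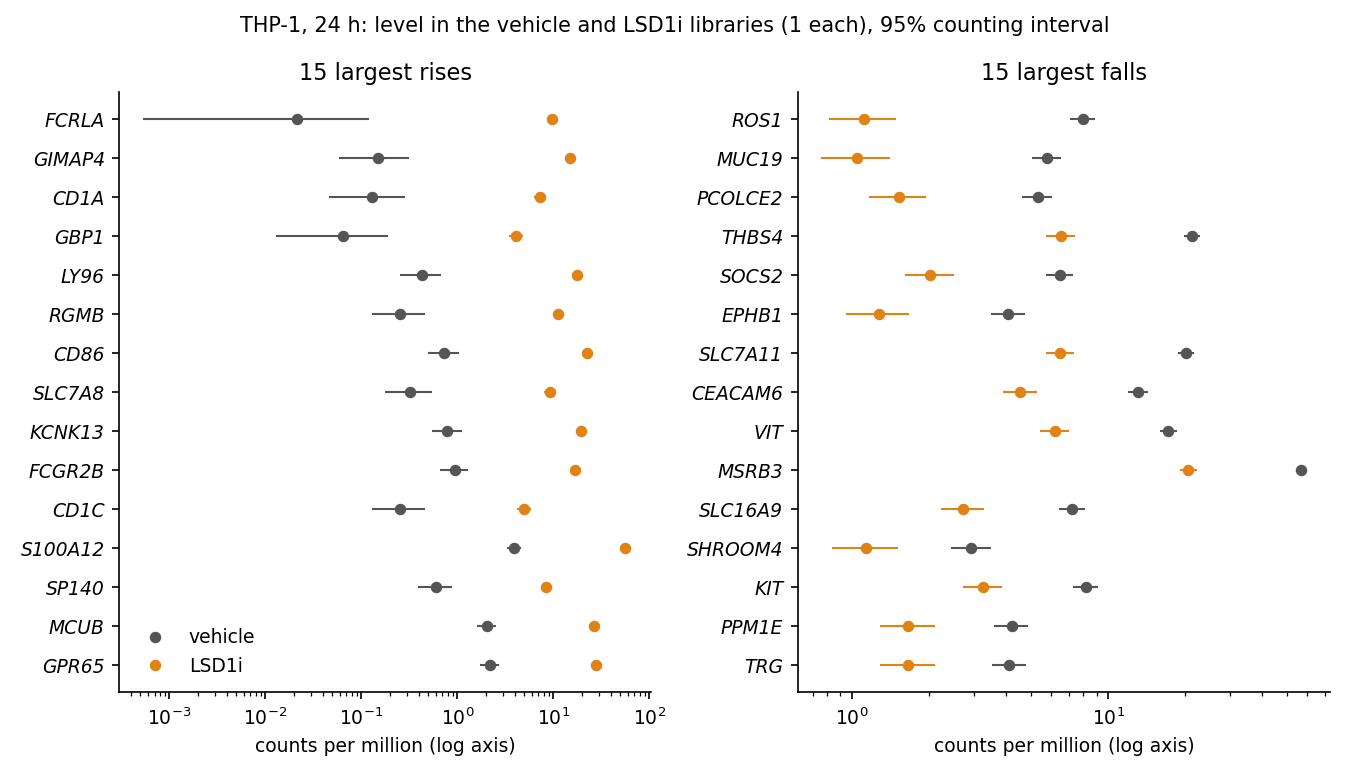
Level of the 15 largest rises and the 15 largest falls among names with a current symbol, in the vehicle library (grey) and the LSD1i library (orange) of THP-1 at 24 h, in CPM on a log axis. Points are single libraries and lines are 95% counting intervals. Most of the largest rises started below 1 CPM in vehicle, and no pair of intervals in either panel overlaps.

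Several of the rises lay side by side in the genome (coordinates of the deposited table, NCBI36). Of the 315 genes 43 fell into 20 groups in which neighbouring higher genes were within 100 kb of each other. The matching count for other sets of tested genes was not computed, so whether the rises cluster was not tested. The groups included S100A8, S100A9 and S100A12 (chr1:151596954-151630173), CD1D, CD1A and CD1C (chr1:156416361-156531188), FCGR2B and FCRLA (chr1:159899575-159950765), GBP1 and GBP2 (chr1:89290593-89364387), and HLA-DMB and HLA-DMA (chr6:33010384-33028863). Chromosome 1 held 44 higher genes, 3.65% of its tested genes, beside 2.8% over all chromosomes, and chromosome 5 had the highest share, 4.16%.

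Promoter sequence was looked up for the largest rises because PU.1 sites are where GFI1 and LSD1 are known to act in myeloid cells. RefSeq promoters (GRCh38.p14, 250 bases before a gene's start, no base after it) were matched by symbol for 8760 of 10670 tested genes and for 25 of the 30 largest rises. The core of the PU.1 and ETS motif, AGGAAGT on either strand, was in 4 of these 25 (FCRLA, GIMAP4, CD1A and SP140). These 4 were picked because they hold the motif, and are printed here to show its place. KIT, which fell and lacks the motif, is printed too. The motif was also absent from the promoters of most of the 25, CD86 and GPR65 among them, so its absence does not set KIT apart. Capitals mark the motif, which reads ACTTCCT where it lies on the other strand. The positions are chr1:161706979-161707228, chr7:150567140-150567389, chr1:158248086-158248335 (the upstream of 2 starts), chr2:230225486-230225735 and chr4:54657707-54657956, all on the plus strand.
FCRLA: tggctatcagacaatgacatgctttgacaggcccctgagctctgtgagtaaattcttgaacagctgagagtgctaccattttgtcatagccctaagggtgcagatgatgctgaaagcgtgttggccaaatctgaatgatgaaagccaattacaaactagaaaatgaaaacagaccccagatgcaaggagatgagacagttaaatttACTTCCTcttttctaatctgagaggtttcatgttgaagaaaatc
GIMAP4: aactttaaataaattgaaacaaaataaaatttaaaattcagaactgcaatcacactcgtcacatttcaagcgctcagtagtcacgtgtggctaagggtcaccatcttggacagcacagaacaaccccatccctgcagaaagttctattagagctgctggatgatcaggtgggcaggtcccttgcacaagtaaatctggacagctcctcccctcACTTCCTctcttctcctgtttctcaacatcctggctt
CD1A: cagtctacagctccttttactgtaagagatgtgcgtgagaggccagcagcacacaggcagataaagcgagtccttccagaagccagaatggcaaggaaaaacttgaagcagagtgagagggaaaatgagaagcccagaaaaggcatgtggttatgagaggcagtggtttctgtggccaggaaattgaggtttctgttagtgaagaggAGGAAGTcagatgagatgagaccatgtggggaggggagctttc
SP140: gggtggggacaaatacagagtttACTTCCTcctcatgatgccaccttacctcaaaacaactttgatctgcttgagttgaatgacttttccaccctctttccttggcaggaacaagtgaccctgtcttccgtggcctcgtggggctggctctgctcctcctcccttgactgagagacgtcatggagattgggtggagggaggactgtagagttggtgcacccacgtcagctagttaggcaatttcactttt
KIT: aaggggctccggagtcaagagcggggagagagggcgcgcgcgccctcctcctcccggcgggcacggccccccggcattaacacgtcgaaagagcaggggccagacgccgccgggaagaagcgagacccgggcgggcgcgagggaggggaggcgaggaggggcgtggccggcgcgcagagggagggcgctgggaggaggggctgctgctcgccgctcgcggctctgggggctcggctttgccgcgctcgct

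In FCRLA, GIMAP4 and CD1A the motif began 44, 37 and 43 bases before the start, and in SP140 227 bases before it. The other RefSeq start of CD1A, downstream of the printed one, had no AGGAAGT in its window, and which start the counted transcripts used was not tested. Over whole groups, AGGAAGT was in 14.2% of the 233 higher genes with a promoter, 2.86% of the 35 lower genes, 9.86% of tested genes and 8.47% of all 27305 genes in the table. A core of the GFI1 motif, AAATCA, was in 16.3% of higher, 17.1% of lower and 8.95% of tested genes, and in 13.8% of all genes in the table. The C/EBP motif TTNNGNAA was in 42.5%, 40%, 30.2% and 38.1% of the same groups, and the AP-1 motif TGANTCA in 12.9%, 5.71%, 5.64% and 8.06%. For GFI1, C/EBP and AP-1 the share of higher genes was thus closer to that of all genes in the table than to that of tested genes. For the PU.1 and ETS motif it was closer to that of tested genes. Among the 25 largest rises with a promoter, AGGAAGT was in 16%, AAATCA in 12%, TTNNGNAA in 52% and TGANTCA in 24%. Each motif was searched on both strands and on its own, so matches of different motifs can overlap, and a gene with several starts counted if any start matched. These shares describe letters in a short window and not binding.

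Some granule protein genes fell. Of 9 tested granule protein genes 0 rose and 2 fell (beside 0.426% lower over all tested genes), with a median of -0.34, and 8 had intervals below equality. CTSG, the serine protease cathepsin G, had 47339 reads (1007 CPM) in vehicle and 21287 (482 CPM) with LSD1i, a ratio of -1.06 (-1.09 to -1.04). CEACAM6, an adhesion protein of granulocytes, had 614 and 200 reads (-1.52, -1.77 to -1.30). PRTN3, myeloblastin, was at -0.49 and MPO, myeloperoxidase, at -0.34. Less RNA per cell and fewer cells of a type cannot be told apart in these bulk libraries.

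Of 14 tested stem and progenitor genes 1 fell (beside 0.426% lower over all tested genes) and 0 rose, with a median of -0.16. The intervals of 4 lay above equality and those of 8 below it. KIT, the receptor for stem cell factor, had 384 reads (8.17 CPM) in vehicle and 143 (3.24 CPM) with LSD1i, a ratio of -1.32 (-1.62 to -1.05). MYB, a transcription factor needed by leukemic progenitors, had 476 and 334 CPM (-0.51, -0.54 to -0.48), MYC 118 and 103 CPM (-0.20) and FLT3 70.7 and 62.0 CPM (-0.19). The KMT2A target HOXA9 had 56.6 and 57.0 CPM (0.01, -0.07 to 0.09). GATA2 and SOX4, also in the list, were on the higher side at 0.67 and 0.88.

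Among names with a current symbol, the 15 largest falls were smaller than the rises and came from genes with low to moderate levels. ROS1, an orphan receptor kinase, had 373 reads (7.94 CPM) in vehicle and 49 (1.11 CPM) with LSD1i, a ratio of -2.79 (-3.30 to -2.41). THBS4, a matrix thrombospondin, had 999 and 288 reads (-1.70), and SOCS2, a feedback inhibitor of cytokine signalling, had 304 and 89 (-1.66, -2.04 to -1.34). EPHB1, an ephrin receptor, had 191 and 56 (-1.65). SLC7A11, the cystine importer, had 947 and 287 (-1.63, -1.83 to -1.44), in contrast to the amino acid exchanger SLC7A8 that rose. MSRB3, an enzyme that repairs oxidized methionine, had 2670 and 908 (-1.46, -1.58 to -1.36), and was the most abundant of the 15. NXT2, a factor of mRNA export, had the largest fall at a mean of at least 50 CPM, with 102 CPM in vehicle and 44.6 CPM with LSD1i (-1.19, -1.26 to -1.11). NXT2 and CTSG were the genes past 2-fold lower at that level.

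Some inflammatory genes rose. Of 18 tested cytokines and NF-kB targets 6 rose (beside 2.8% over all tested genes) and 0 fell, with a median of 0.55. CCL2, the chemokine that draws monocytes, had 92 reads (1.96 CPM) in vehicle and 988 (22.4 CPM) with LSD1i, a ratio of 3.49 (3.21 to 3.84). TNF had 102 and 504 reads (2.37, 2.08 to 2.72), IL1B 112 and 380 (1.83, 1.54 to 2.17) and IL1RN, the antagonist of the same receptor, 491 and 2195 (2.25, 2.11 to 2.39). The adhesion molecule ICAM1 (2.60) and the cytokine OSM (1.43) were the other members that rose. Of 39 tested interferon response genes 7 rose (beside 2.8% over all tested genes), with a median of 0.28. Besides GBP1 these were HERC5, GBP2, TRIM22, IFI16, OAS1 and IFIT5, from 1.27 to 2.39, while ISG15 had 676 and 617 reads (-0.04). MX1, with 84 and 52 reads, was under the level filter and not tested.

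Of 21 tested feedback and immediate-early genes of the ERK cascade 5 rose (beside 2.8% over all tested genes) and 0 fell, with a median of 0.38. SPRY4, an inhibitor of receptor kinase signalling, had 69 reads in vehicle and 432 with LSD1i (2.70, 2.37 to 3.12), and SPRED1, a RAS pathway inhibitor, had 41 and 176 (2.14). The ETS factors ETV1 and ETV5, targets of the same cascade, had 66 and 473 reads in vehicle and 309 and 1293 with LSD1i (2.28 and 1.54). PHLDA1 was at 1.24. FOS, an immediate-early gene, had 947 and 1753 reads and at 0.98 was just short of 2-fold.

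Transcripts of the mTOR pathway, the subject of the study's choice of times, were near equality. MTOR had 3359 reads (71.5 CPM) in vehicle and 3048 (69.0 CPM) with LSD1i, a ratio of -0.05 (-0.12 to 0.02). Of 46 tested genes of the mTOR complexes and their regulators 1 rose (beside 2.8% over all tested genes) and 0 fell. The median was 0.04. RPTOR and RICTOR, which define the complexes mTORC1 and mTORC2, matched no name and were not analysed here. The riser was DDIT4 (REDD1), a stress-induced inhibitor of mTORC1, with 385 and 911 reads (1.33, 1.16 to 1.51). SESN2, an amino acid sensor that restrains mTORC1, was at 0.47 and its relative SESN3 at -0.58, and PRKAA1, the catalytic chain of AMPK, at -0.48. Transcript levels do not measure the activity of a kinase.

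Upstream of mTOR, 1 of 27 tested insulin, PI3K and AKT genes rose (beside 2.8% over all tested genes), and the median was 0.01. The riser was the kinase SGK1, with 111 and 326 reads (1.63, 1.33 to 1.97). The insulin receptor substrates went apart: IRS1 had 37 reads (0.787 CPM) in vehicle and 130 (2.94 CPM) with LSD1i (1.85, 1.37 to 2.47), with a mean just under the level filter, and IRS2 had 969 and 680 (-0.42, -0.56 to -0.28). INPP4B, a phosphoinositide phosphatase, was at -0.68.

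Of 51 tested lysosome and autophagy genes 8 rose (beside 2.8% over all tested genes) and 0 fell, with a median of 0.26. The cathepsins CTSZ, CTSB and CTSH, proteases of the lysosome, had 160, 181 and 47.4 CPM in vehicle and 386, 407 and 103 CPM with LSD1i (1.27, 1.17 and 1.12). GABARAP, an autophagosome protein of the ATG8 family, had 40.0 and 144 CPM (1.85, 1.77 to 1.92), and progranulin (GRN) 198 and 442 CPM (1.16). FUCA1, a lysosomal fucosidase, and TFEB, the transcription factor of lysosomal genes, also rose. Of 31 tested glycolysis and hypoxia genes 2 rose (beside 2.8% over all tested genes). They were HK2, hexokinase 2, with 865 and 3642 reads (2.16, 2.06 to 2.27), and PFKM, a phosphofructokinase, with 91 and 180 (1.06). Of 41 tested ATF4 targets 2 rose (DDIT4 and VEGFA) and 1 fell (SLC7A11), beside 2.8% and 0.426% over all tested genes. None of 37 cholesterol and fatty acid synthesis genes passed 2-fold, nor did any of 48 genes of ribosome biogenesis.

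Few proliferation genes passed 2-fold, and the list counts in this paragraph stand beside 2.8% higher and 0.426% lower over all tested genes. None of 42 tested S phase genes passed 2-fold and their median was 0.01, and of 47 G2 and mitosis genes 1 rose, CDC25B (1.02), with a median of -0.04. Among 16 G1 regulators BTG1, an antiproliferative gene, rose from 1021 to 1987 reads (1.05), CDKN1A (p21) had 871 and 1391 reads (0.76, 0.64 to 0.89), and CDK6 had 238 CPM in vehicle and 139 CPM with LSD1i (-0.78, -0.82 to -0.73). Of 27 cell death regulators the TRAIL receptor TNFRSF10B rose (1.48, 1.35 to 1.61), and BCL2, the antiapoptotic protein, had 112 and 75.2 CPM (-0.57). None of 28 unfolded protein response and heat shock genes passed 2-fold. Of 46 ribosomal protein and translation genes 1 rose, RPS29, with 1186 and 2280 reads (1.03).

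**Figure D3:**
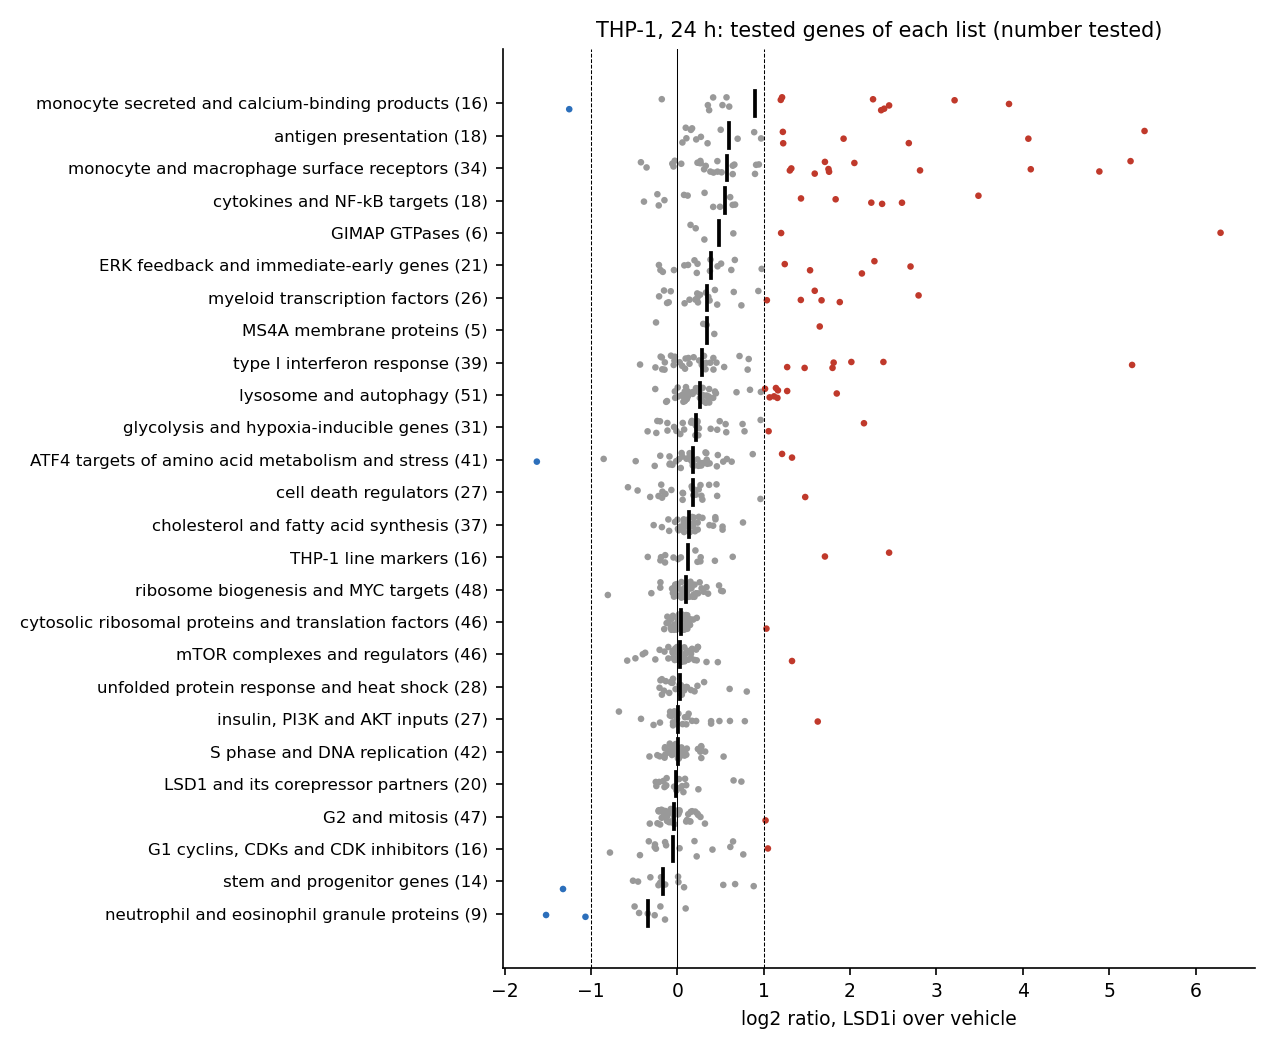
Log2 ratio of LSD1i over vehicle at 24 h in THP-1 (horizontal axis) for the tested genes of gene lists. Rows are lists with the number tested, points are genes and the black bar is the list's median. The erythroid and megakaryocyte, lymphoid, and mast cell and basophil lists had few or no tested genes and are not drawn. Red and blue points are genes past 2-fold higher and lower. Medians run from -0.34 (granule proteins) to 0.90 (monocyte secreted and calcium-binding products).

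The THP-1 pair at 72 h shares no library with the pair at 24 h and shows what became of the same genes later. Of 11391 genes tested there 358 were higher (3.14%) and 164 lower (1.44%). Of the 315 genes that rose at 24 h, 229 were also past 2-fold higher at 72 h, which is 72.7% of the 24 h genes and 64.0% of the 72 h genes, and 0 were past 2-fold lower. Of the 48 that fell, 31 were also lower at 72 h, which is 64.6% of the 24 h genes but 18.9% of the 72 h genes. One name went the opposite way, AC010970.3-1, a clone-derived name with no symbol and a ratio of -1.54 at 24 h and 2.57 at 72 h. It is given here because it was the exception.

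The later ratio was larger for some of the genes and smaller for others. Among the 297 higher genes tested at both times the median log2 ratio was 1.48 at 24 h and 1.53 at 72 h, and 152 had the larger ratio at 72 h. The 3 largest gains were in the S100 cluster. S100A12 had 29 reads in vehicle and 8804 with LSD1i at 72 h, a ratio of 8.38 (7.96 to 9.06) beside 3.84 at 24 h. S100A8 and S100A9 reached 5.67 and 5.49, VCAN 5.21, LYZ 4.38 and CYBB 4.39. For S100A8 the vehicle level was itself lower at 72 h, with 6150 reads at 24 h and 2126 at 72 h, so the larger ratio goes with a lower vehicle level as well as a higher LSD1i level (30398 and 92319 reads). LYZ vehicle reads were 42132 and 22203. For CYBB the LSD1i level was nearly the same at both times, 108 CPM at 24 h and 110 CPM at 72 h. Its vehicle level was 17.7 CPM at 24 h and 5.22 CPM at 72 h, so the larger ratio goes with the lower vehicle level.

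Other rises were smaller at 72 h. ID1 had 489 reads in vehicle and 504 with LSD1i at 72 h, a ratio of 0.28 (0.09 to 0.46) beside 1.67 (1.56 to 1.78) at 24 h, and ID3 was at 1.64 beside 2.79. The cytokines TNF (1.82), IL1B (1.43) and OSM (0.66), the ERK feedback gene SPRY4 (1.71) and hexokinase HK2 (1.26) were also below their values at 24 h. Genes chosen after their values were seen show the ends of this pattern: the homeobox gene DLX3 had 1.31 at 24 h and -0.57 at 72 h, the repressor SNAI3 had 1.58 and 0.14, and the peptidase DPP4 had 2.31 and 0.79. GIMAP4, CD86, LY96, RGMB, OLFML3 and GPR65 were past 3.5 at both times. Among the falls, KIT went from -1.32 to -3.00 and ROS1 from -2.79 to -4.95, whereas CACNB4, a calcium channel subunit also chosen after its values were seen, had -1.03 and 0.01. The times were single pairs of separate libraries, so a change with time was not tested.

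**Figure D4:**
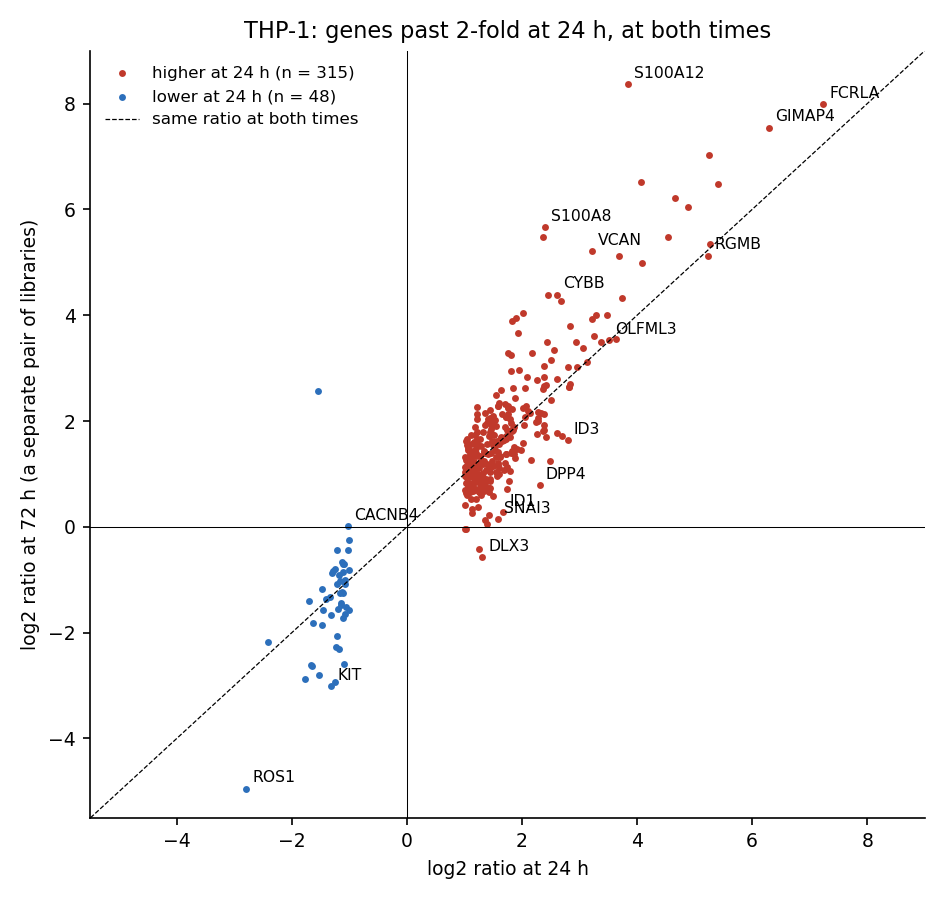
Log2 ratio of LSD1i over vehicle in THP-1 at 24 h (horizontal axis) and at 72 h (vertical axis) for the genes past 2-fold at 24 h, with the 315 higher genes in red and the 48 lower genes in blue. Each axis is 1 pair of libraries and the dashed line marks equal ratios. S100A12 lies far above the line, with 3.84 and 8.38, and ID1 far below it, with 1.67 and 0.28.

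The KASUMI-1 pairs gave values for part of these genes. At 6 h, 84 of 10942 tested genes were past 2-fold higher (0.768%) and 4 lower (0.0366%), and at 72 h 408 of 11028 were higher (3.7%) and 94 lower (0.852%). Of the 315 THP-1 genes 182 were tested in KASUMI-1 at 6 h and 33 were higher, which is 10.5% of the THP-1 genes and 39.3% of the KASUMI-1 genes. At 72 h 194 were tested and 65 were higher, which is 20.6% of the THP-1 genes and 15.9% of the KASUMI-1 genes. Of the 48 genes that fell in THP-1, 19 were tested in KASUMI-1 at each time, and 0 at 6 h and 1 at 72 h were lower, the latter 2.08% of the THP-1 and 1.06% of the KASUMI-1 genes. The lines were sampled at different first times, so 24 h in THP-1 and 6 h in KASUMI-1 are given side by side and not compared.

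A group of genes had large ratios in both lines. CD86 was at 4.89 in THP-1 at 24 h and at 3.91 and 4.27 in KASUMI-1 at 6 and 72 h, LY96 at 5.25 beside 3.70 and 5.10, and GPR65 at 3.64 beside 2.58 and 2.87. LY96 was under the level filter in KASUMI-1 at 6 h, with 7 and 119 reads. GIMAP4 had 1 read in vehicle and 235 with LSD1i in KASUMI-1 at 6 h and 2 and 733 at 72 h, and SP140 had 2 and 32 at 6 h and 0 and 29 at 72 h. LYZ was at 2.45 beside 2.19 and 3.48. Another group had ratios within 2-fold in KASUMI-1. ANXA2 was at 3.29 in THP-1 at 24 h and at 0.52 and 0.43 in KASUMI-1, S100A8 at 2.40 beside -0.52 and -0.12, and CYBB at 2.60 beside 0.33 and 0.55. S100A8 was under the level filter in KASUMI-1 at 6 h, with 45 and 32 reads and an interval of -1.25 to 0.14. OLFML3, CD14 and CD1A were hardly detected in KASUMI-1, with at most 7, 2 and 3 reads in any of its libraries. Whether these ratios differ between the lines was not tested, since each is 1 pair of libraries.

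**Figure D5:**
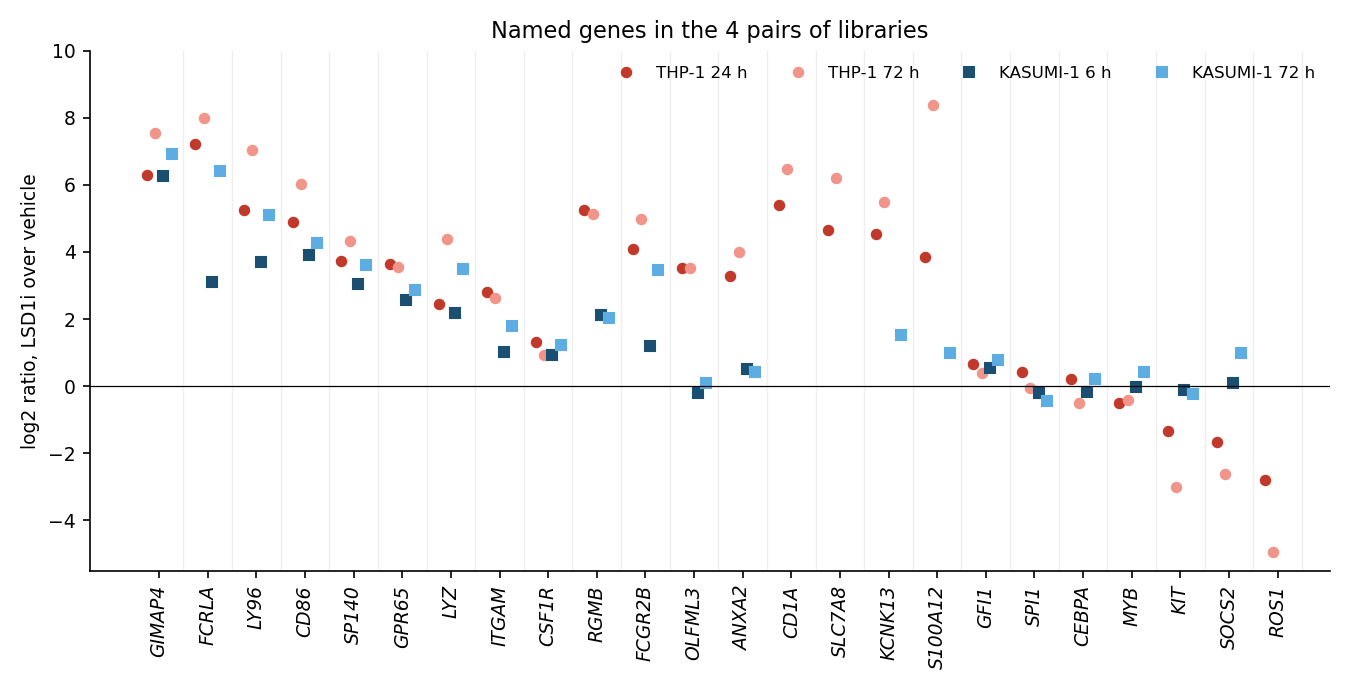
Log2 ratio of LSD1i over vehicle (vertical axis) of 24 named genes in the 4 pairs of libraries: THP-1 at 24 and 72 h (circles) and KASUMI-1 at 6 and 72 h (squares). GIMAP4 is at 6.29 and 6.27 in the earlier pair of each line, while ANXA2 is at 3.29 in THP-1 at 24 h and at 0.52 in KASUMI-1 at 6 h. A pair with 3 or fewer reads in both libraries has no point.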

How the data were processed

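RNA-seq libraries (TruSeq kit, 500 ng total RNA, per the labels' protocols) were counted per gene by the authors. The deposited table holds raw read counts with no normalization, made with featureCounts 1.5.2 on Ensembl release 54 gene models of NCBI build 36, per the file headers. TopHat2 2.0.10 is named in the submitters' processing notes. The counting command sets no strand option and does not count reads that map to several places, so antisense or overlapping genes cannot be separated and close paralogs may be undercounted.

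Samples were grouped by line, agent and time from the labels, which do not say whether libraries came from separate cultures. Of 33045 names, 16656 were current symbols, 3161 were matched through older symbols and 13228 had none. TMM factors over the 8 libraries came from edgeR 4.0.16 in R 4.3.3, and intervals from scipy 1.17.1. Library factors, prior count (2 or 0.5), level filter and fold threshold were varied for the THP-1 pair at 24 h. The ratio script was tested on simulated data. 29 gene lists were used, of which 913 of 941 symbols matched. Genes named were 24 fixed ones, the 15 largest rises and falls with a current symbol, the 5 largest each way at 50 CPM or more, up to 5 with 0 vehicle reads, and up to 6 per list. Some genes that this rule names are left out of the text. The members and lists were chosen with earlier results of these data known. Reads carried no molecular identifiers, so intervals and floors describe the error of counting and nothing else.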

Additional observations from a re-analysis of the deposited data

Results flagged for a closer look

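For 6 of the genes named by the rule, both THP-1 pairs lay on one side of equality and both KASUMI-1 pairs on the other, with a size of at least 0.5 at 24 h and every interval clear of equality. The difference between the lines was not tested, since each value is 1 pair of libraries. The kinase CDK6 had log2 ratios of -0.78 and -0.78 in THP-1 at 24 and 72 h and 0.28 and 0.54 in KASUMI-1 at 6 and 72 h. SESN3 had -0.58 and -0.40 in THP-1 and 0.31 and 0.57 in KASUMI-1. The export factor NXT2 had -1.19 and -0.92 in THP-1 and 0.20 and 0.26 in KASUMI-1. The cathepsin CTSZ had 1.27 and 1.35 in THP-1 and -0.08 (-0.14 to -0.01) and -0.32 in KASUMI-1. Other library factors were not tried for the KASUMI-1 pairs, so the sign of a value this near equality was not checked under them. The ribosomal protein gene RPS29 had 1.03 and 0.64 in THP-1 and -0.70 and -0.75 in KASUMI-1. CD79B, a B cell receptor chain with 81 reads in vehicle and 118 with LSD1i at 24 h, had 0.62 and 0.50 in THP-1 and -0.69 and -0.67 in KASUMI-1.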

How the results depend on the processing

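The counts of 315 higher and 48 lower genes stayed within 1.5 times under the other library factors and the smaller prior count, where they ranged from 292 to 323 and from 48 to 62. Without a factor beyond counted reads the share of higher genes was 82.5% (86.8% with TMM over 8 libraries), 288 of the 315 and all 48 genes kept their calls, and the median of all tested genes was -0.05. The level filter set the counts more strongly: at a mean of at least 10 CPM there were 159 higher and 12 lower genes (93.0% higher), and with no filter 610 and 273 (69.1%). At 1.5-fold there were 743 and 279 (72.7%), and with the whole interval beyond 2-fold 235 and 19 (92.5%). In the THP-1 pair at 24 h, the only pair for which settings were varied, no named gene whose interval excluded equality changed sign. Named values moved beyond their counting intervals only without a factor beyond counted reads (48 of 199 genes), as did 8 of 28 list medians beyond their own intervals, and the erythroid and megakaryocyte median also moved with no filter. The medians of the insulin, mTOR, S phase, unfolded protein response and ribosomal protein lists, all near 0, turned negative without a factor (-0.06, -0.03, -0.06, -0.03 and -0.02), that of the insulin list also at 10 CPM (-0.0034), and the erythroid and megakaryocyte median with no filter (-0.09). No called gene changed direction under any of these settings. No paired analysis was possible because each group holds 1 library and no replicate numbers pair them.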

Other observations

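Some groups of genes outside the lists were noticed after their values were seen, and are given as values. Among cytosolic sensors of bacterial products, NLRC4 had 125 reads in vehicle and 914 with LSD1i (log2 ratio 2.94, 95% counting interval 2.69 to 3.24), its ligand-binding partner NAIP had 380 and 734 (1.04), NLRP12 had 256 and 1288 (2.41) and NOD2 had 113 and 233 (1.12). NLRP3, the sensor of cell damage, had 5623 and 5664 (0.10). At 72 h NLRC4 was at 3.49, NAIP at 1.62, NLRP12 at 1.69 and NOD2 at 1.22.

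The enzymes that make leukotriene B4 were higher as well: ALOX5 had 128 reads in vehicle and 427 with LSD1i (1.81, 1.54 to 2.12), and LTA4H had 3086 and 8969 (1.63, 1.57 to 1.69). Of the subunits of the phagocyte oxidase, CYBB had 833 and 4764 reads (2.60) and NCF1 200 and 531 (1.49), a value that is uncertain because NCF1 has near-identical copies. NCF4, CYBA and RAC2 were between -0.02 and 0.12.

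In 42 genes the vehicle library had 0 reads and the LSD1i library more than 3. EVPL, an envelope protein of epithelia, had the most, 26 reads, at least 9.22-fold higher when the vehicle library is set to 3 reads.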
